A study of Mus musculus with 8 samples.

Results

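Blood clotting and complement depend on plasma proteins that hepatocytes make and secrete, and the data below describe the liver mRNA of 33 of them: 16 clotting genes and 17 complement genes. The genes were taken by symbol from a list of members, with the condition that the level reached at least 1 FPKM, a fragment count divided by transcript length and by the mapped fragments of the library, in at least 2 libraries. All 33 symbols were found, each at 1 locus of the 23699 loci in the files, and all 33 met the condition, as did 10865 loci in all.

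Polyadenylated liver RNA was sequenced from male C57/BL6 mice, 8 weeks old, of 2 genotypes in 2 feeding states, with 2 libraries in each of the 4 groups. LMKO mice carry a liver-specific knockout of Med23, a gene of the Mediator complex, through which transcription factors act on RNA polymerase II. Re-fed LMKO mice and re-fed control mice were fasted for 24 h and then given food for 24 h, while fasted LMKO mice and fasted control mice were fasted for 24 h. The Cre line behind the knockout, and what alleles the control mice carry, are not given in the sources used here. Med23 itself read 1.61 and 1.74 FPKM in re-fed LMKO livers, 2.86 and 2.33 FPKM in re-fed control livers, 2.35 and 2.18 FPKM in fasted LMKO livers, and 2.86 and 2.93 FPKM in fasted control livers. The LMKO values lay below the control values in both feeding states, by 0.34 on the log2 scale on average (limma adjusted p = 0.173), which did not pass the threshold.

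Clotting runs through serine proteases that activate one another in turn, by a tissue factor branch and a contact branch, until factor X and factor V together form thrombin, which makes fibrin. Anticoagulants such as antithrombin and protein C restrain the cascade, and plasmin dissolves the clot. Complement is started by antibodies, by lectins that bind sugars on microbes, or by the alternative pathway. All of these split C3, which tags targets and leads to the membrane attack complex. Liver is the main source of most of these proteins, and several of the complement genes belong to the acute-phase response of hepatocytes to inflammation.

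The 8 libraries held FPKM totals of 453652 to 597650 and between 10096 and 10403 loci at 1 FPKM or more, and the number of fragments behind them is unknown. Libraries of a group correlated at 0.963 to 0.976 across loci. For each library, the deviation of a locus from its mean log2 level over the 8 libraries was correlated with log2 transcript length. This correlation was positive in the 4 fasted libraries (0.233 to 0.293). In the re-fed libraries it was -0.0119 in control replicate 1 and -0.367 to -0.324 in the other 3. Deviations at a locus cancel over the 8 libraries, so opposite signs are partly built in. The balance of long and short transcripts thus moved with feeding, and calls were also made with the length trend removed. The names of the deposited tables carry one prefix for the fasted and another for the re-fed libraries, and if it marks a batch, that batch and feeding cannot be told apart. Hepatocyte markers summed to between 12833 and 17617 FPKM per library, but single markers moved in both directions on re-feeding. Of the 7 that were tested, 2 were called higher and 3 lower in LMKO livers, and 1 higher and 2 lower in control livers. Of the 8 markers, Alb, which encodes albumin, had a listed value of 0 throughout, and this can be a failed estimate.

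FPKM is scaled by transcript length, so levels of different genes are set beside each other here. The comparison is rough, since levels still shifted with transcript length between libraries. Among the clotting genes, Serpinc1 (antithrombin, the main inhibitor of thrombin), Plg (plasminogen), F2 (prothrombin) and Kng1 (kininogen, a cofactor of the contact branch) were higher than the other 12 in every library, with values between 465 and 992 FPKM. Pros1 (protein S, the cofactor of activated protein C) had the lowest maximum of the 16, with 13.7 to 49.1 FPKM. Among the complement genes, C3 led by far with 1248 to 3167 FPKM, and C2 (26.2 to 44.1 FPKM) and Masp1 (25.5 to 49.2 FPKM) were at the low end. The 16 clotting genes together made up 0.798% to 1.09% of a library's FPKM total and the 17 complement genes 0.894% to 1.34%.

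**Figure D1:**
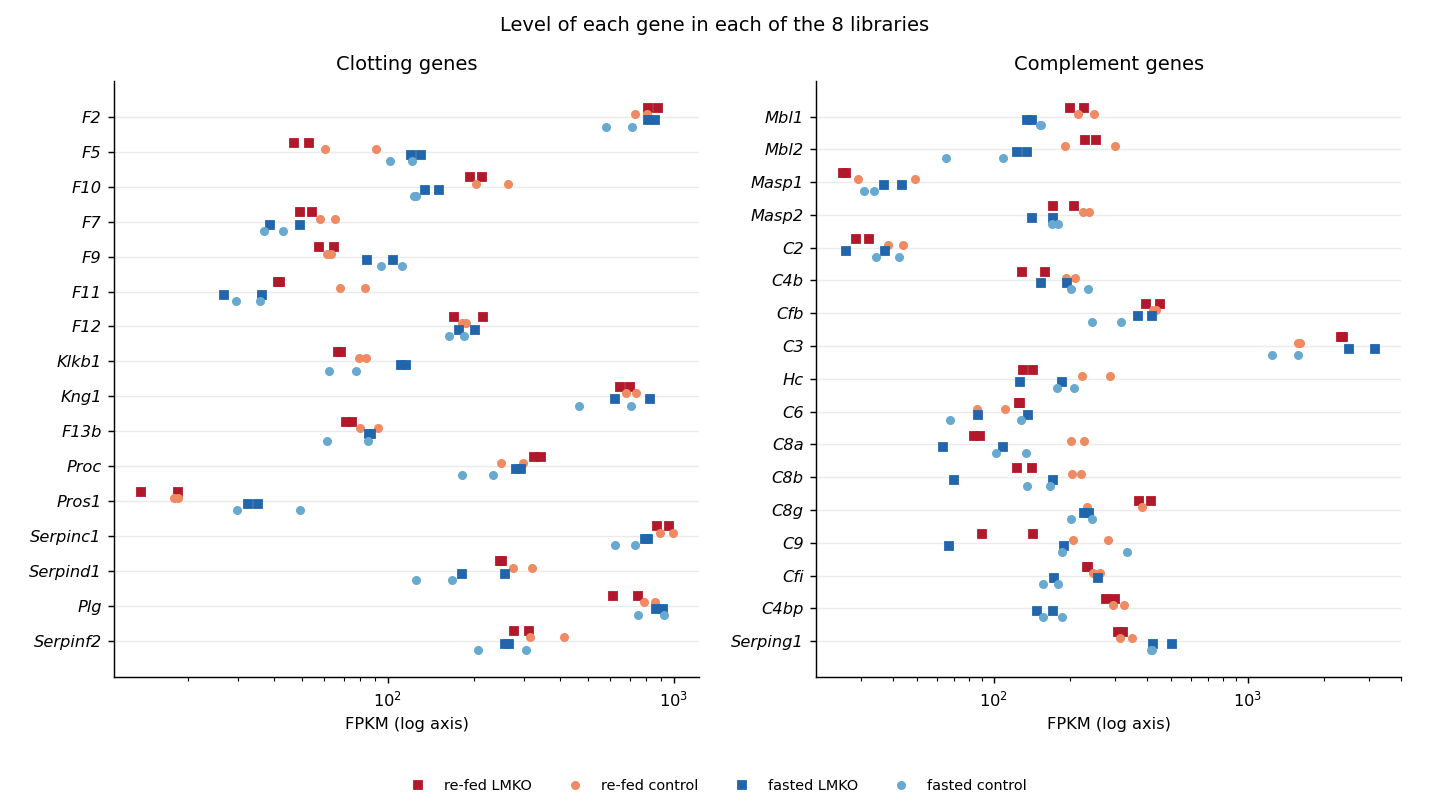
FPKM of the 16 clotting genes (left) and the 17 complement genes (right) in each of the 8 libraries, on a log axis; each point is 1 library, squares are LMKO and circles control, red shades are re-fed and blue shades fasted. C3 stands at 1248 to 3167 FPKM, above every other gene in the right panel, and the members otherwise spread from 13.7 to 992 FPKM.

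The largest number of changes among these genes came with re-feeding. In re-fed LMKO livers, 5 of 16 clotting genes passed an adjusted p of 0.05 against fasted LMKO livers, 1 higher and 4 lower, while 39.5% of all loci tested were called, 23.2% higher and 16.3% lower. In re-fed control livers, 7 of 16 passed against fasted control livers, 5 higher and 2 lower, while 33.2% of all loci were called, 22.8% higher and 10.5% lower. For complement, 5 of 17 passed in LMKO livers, 4 higher and 1 lower, and 5 of 17 in control livers, all higher. Against those backgrounds the counts say nothing particular about the gene group, and the results below are on single genes. The test was limma on log2(FPKM + 1), with p-values adjusted by the Benjamini-Hochberg method over all 10865 loci. Fold changes are on that scale, re-fed over fasted or LMKO over control. The median log2 fold change of re-feeding over all loci was 0.06 in LMKO livers and 0.13 in control livers, and median-ratio scaling moved the control median to 0.0087. Control values are therefore also given relative to that median. Groups of 2 libraries often did not overlap: re-fed values lay above fasted values without overlap at 41.5% of all loci in LMKO livers and at 43.9% in control livers, and below them at 33.8% and 25.0%.

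**Figure D2:**
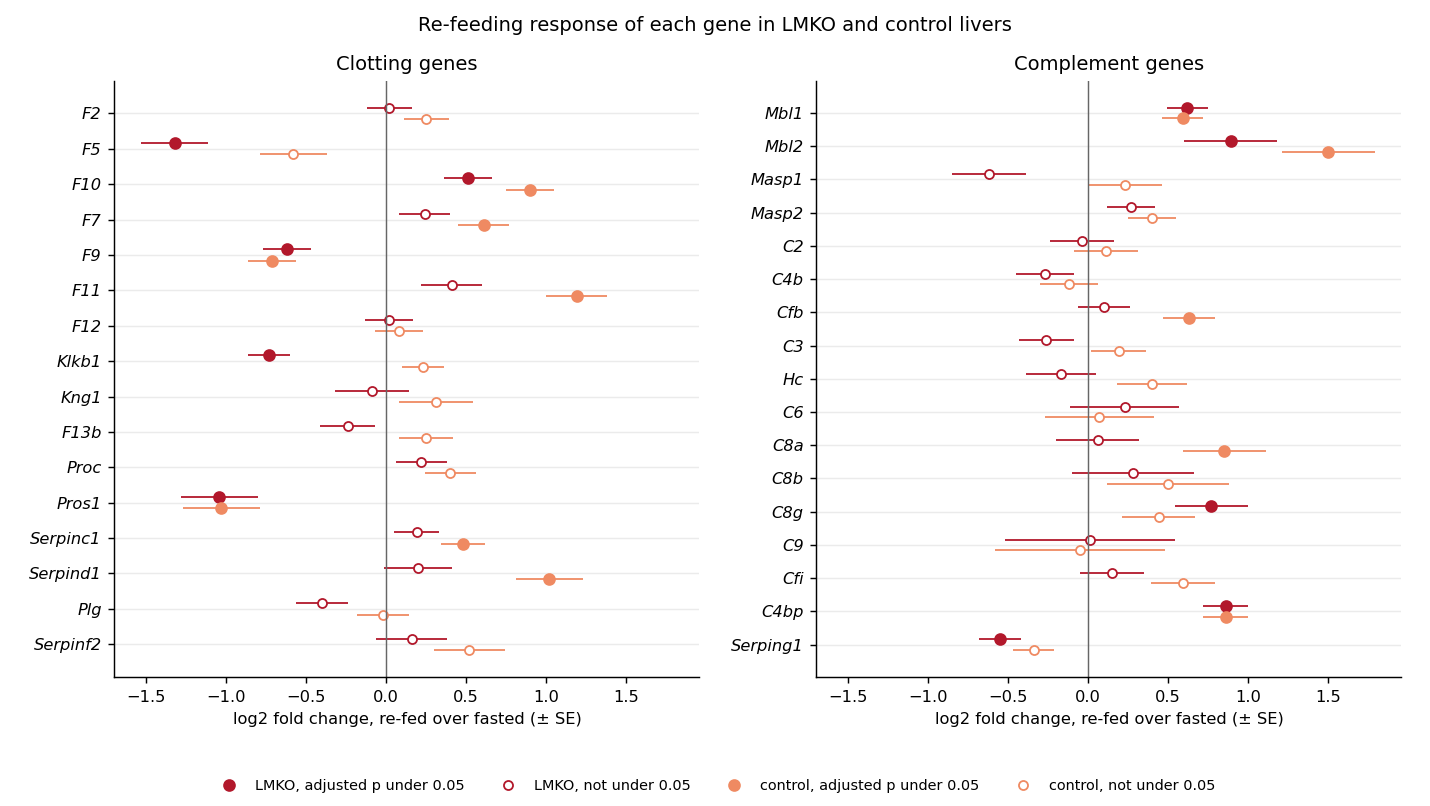
Log2 fold change of re-feeding (re-fed over fasted, on log2(FPKM + 1)) for the 16 clotting genes (left) and the 17 complement genes (right), with red points for LMKO and orange points for control livers; bars are ± 1 SE from limma, and filled points have an adjusted p under 0.05. F9 and Pros1 lie left of 0 and F10, C4bp, Mbl1 and Mbl2 right of 0 in both genotypes, all filled.

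In the common pathway, F10 was higher and F5 lower after re-feeding. F10 (factor X, the protease that cleaves prothrombin; chr8:13037308-13056676, mm9) had 214 and 194 FPKM in re-fed LMKO livers, 204 and 263 FPKM in re-fed control livers, 135 and 151 FPKM in fasted LMKO livers, and 125 and 123 FPKM in fasted control livers. Every re-fed library lay above every fasted one. The log2 fold change was 0.51 (SE 0.15, limma adjusted p = 0.0383) in LMKO livers and 0.90 (SE 0.15, limma adjusted p = 0.00813; 0.77 relative to the median of all loci) in control livers. The control call held in all 8 fits that left out 1 library. The LMKO call was lost without any 1 of the 4 LMKO or the 2 fasted control libraries (adjusted p up to 0.171), and with no filter, median-ratio scaling, quantile normalization or the length trend removed.

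F5 (factor V, the cofactor of factor X; chr1:166081990-166150405, mm9) read 46.8 and 52.8 FPKM in re-fed LMKO livers, 90.9 and 60.5 FPKM in re-fed control livers, 120.4 and 131 FPKM in fasted LMKO livers, and 121 and 102 FPKM in fasted control livers. All 4 re-fed values were under all 4 fasted values, and the re-fed LMKO pair was the lowest. In LMKO livers the log2 fold change of F5 was -1.32 (SE 0.21, limma adjusted p = 0.00457), and the call held without each of the 8 libraries in turn and in all 10 other settings. In control livers it was -0.58 (SE 0.21, limma adjusted p = 0.0725), which did not pass. The difference between the responses was -0.74 (SE 0.29, limma adjusted p = 0.516), so a difference between genotypes was not shown. F2 (prothrombin) had values of 813 and 878 FPKM against 732 and 803 FPKM in re-fed LMKO and control livers, and 814 and 859 FPKM against 581 and 713 FPKM in fasted ones, and was not called for re-feeding in either genotype.

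F7 (factor VII, the protease that tissue factor activates) has its locus beside that of F10 on chromosome 8, with 1498 bases between them. It had 54.1 and 49.4 FPKM in re-fed LMKO livers, 58.1 and 65.2 FPKM in re-fed control livers, 38.6 and 49.3 FPKM in fasted LMKO livers, and 43.1 and 36.9 FPKM in fasted control livers. Re-fed values were above fasted values in both genotypes, narrowly in LMKO livers. F7 rose in control livers by a log2 fold change of 0.61 (SE 0.16, limma adjusted p = 0.0274; 0.49 relative to the median), and had 0.24 (SE 0.16, limma adjusted p = 0.269) in LMKO livers. The control call of F7 was lost without fasted control replicate 2 or either re-fed control library (adjusted p up to 0.129), and also with median-ratio scaling, quantile normalization, the length trend removed, or only the 4 control libraries.

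The contact and intrinsic branch held changes in both directions. F11 (factor XI, a protease that activates factor IX; chr8:46326524-46347385, mm9) had 42.1 and 41.2 FPKM in re-fed LMKO livers, 67.8 and 83.0 FPKM in re-fed control livers, 26.8 and 36.4 FPKM in fasted LMKO livers, and 29.5 and 35.7 FPKM in fasted control livers. The re-fed control pair stood above the other 6 libraries, and the re-fed LMKO pair above both fasted groups. F11 rose in control livers by a log2 fold change of 1.19 (SE 0.19, limma adjusted p = 0.00634; 1.06 relative to the median), the smallest adjusted p of any member in that comparison, and the call held without each library in turn and in all 10 other settings. In LMKO livers the value was 0.41 (SE 0.19, limma adjusted p = 0.126), and the difference between the responses was -0.78 (SE 0.26, limma adjusted p = 0.507), neither of which passed.

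The promoter of F11 is shown because the gene had this large response and holds matches to 2 of the motifs searched. The window is the 250 bases before the RefSeq start on GRCm38.p6, minus strand (chr8:45262032-45262281 of that build, which is not the mm9 of the FPKM tables); capitals mark first a forkhead match and then a C/EBP match.
F11: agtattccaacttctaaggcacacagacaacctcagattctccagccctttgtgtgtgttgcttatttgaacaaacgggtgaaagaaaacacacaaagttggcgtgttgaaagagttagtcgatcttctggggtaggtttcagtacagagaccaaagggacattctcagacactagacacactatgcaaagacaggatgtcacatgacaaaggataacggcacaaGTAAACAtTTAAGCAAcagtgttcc
Such windows were found for 24 of the 33 members, 13 clotting and 11 complement genes, in the RefSeq table, and were searched on both strands for GTTAAT (part of an HNF1 site), CAAAGTNCA (HNF4), TTGCNNAA (C/EBP), TGTTTAC (forkhead factors) and TTCNNNGAA (STAT factors); no pattern lies within another. TGTTTAC occurred in 2 of 13 clotting windows (F11 and Klkb1), in 0 of 11 complement windows and in 3.17% of all 32851 windows of the table. TTGCNNAA occurred in 3 of 13 clotting windows (F11, F9 and Klkb1), in 2 of 11 complement windows (C3 and C9) and in 9.56% of all windows. CAAAGTNCA was present in F9 alone among the members and in 1.19% of all windows. TTCNNNGAA was present in F9, Pros1, C8a and Masp2, and in 7.02% of all windows. These are matches of letters and describe no binding.

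Klkb1 (plasma prekallikrein, which with factor XII starts the contact branch; chr8:46354807-46380189, mm9) is the neighbour of F11, 7421 bases away. Its values were 68.8 and 67.1 FPKM in re-fed LMKO livers, 83.9 and 79.1 FPKM in re-fed control livers, 111 and 116 FPKM in fasted LMKO livers, and 77.6 and 62.4 FPKM in fasted control livers. The fasted LMKO pair was above the other 6 libraries. Klkb1 fell in LMKO livers by 0.73 on the log2 scale (SE 0.13, limma adjusted p = 0.00747), a call that held without each library in turn and in all 10 other settings. In control livers its log2 fold change was 0.23 (SE 0.13, limma adjusted p = 0.234). The difference between the responses was -0.96 (SE 0.19), the smallest p of any member for it, but the limma adjusted p = 0.451 did not pass. The ratio of F11 to Klkb1 within a library was 0.613 and 0.614 in re-fed LMKO livers, 0.807 and 1.05 in re-fed control livers, 0.241 and 0.313 in fasted LMKO livers, and 0.38 and 0.572 in fasted control livers, so the neighbours did not keep 1 proportion. Their median transcript lengths differ, at 2240 bases for F11 and 5249 bases for Klkb1, and the part of length in this ratio was not tested.

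F9 (factor IX, which activates factor X; chrX:57252641-57283935, mm9) was lower after re-feeding in both genotypes. It had 57.5 and 64.6 FPKM in re-fed LMKO livers, 63.1 and 61.2 FPKM in re-fed control livers, 84.7 and 104 FPKM in fasted LMKO livers, and 94.4 and 112 FPKM in fasted control livers. The 4 re-fed values were close together and under all fasted values. F9 fell by 0.62 in LMKO livers (SE 0.15, limma adjusted p = 0.0193) and by 0.71 in control livers (SE 0.15, limma adjusted p = 0.0149), both on the log2 scale, or -0.84 relative to the median in control livers. Both calls held in all 10 other settings. The LMKO call was lost without fasted LMKO replicate 2 or either re-fed LMKO library (adjusted p up to 0.105), and the control call without fasted control replicate 2 or re-fed control replicate 2 (adjusted p up to 0.0752). F12 (factor XII, 163 to 216 FPKM over the 8 libraries) and Kng1 (465 to 824 FPKM) were called in no comparison, and the split of reads between Kng1 and its near copy Kng2, at 70.5 to 145 FPKM, is uncertain. F13b, which encodes the carrier subunit of the fibrin cross-linking enzyme, ranged from 61.2 to 92.3 FPKM and was not called either.

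Among the anticoagulants, Serpind1 and Serpinc1 were higher after re-feeding in control livers and Pros1 was lower in both genotypes. Serpind1 (heparin cofactor II, an inhibitor of thrombin; chr16:17331464-17343665, mm9) had 246 and 250.4 FPKM in re-fed LMKO livers, 318 and 275 FPKM in re-fed control livers, 181 and 257 FPKM in fasted LMKO livers, and 168 and 125 FPKM in fasted control livers. Fasted LMKO replicate 2 lay within the re-fed range, so the LMKO groups overlapped, while the control groups did not. The log2 fold change was 1.02 (SE 0.21, limma adjusted p = 0.0145; 0.90 relative to the median) in control livers and 0.20 (SE 0.21, limma adjusted p = 0.481) in LMKO livers, with a difference of -0.82 (SE 0.30, limma adjusted p = 0.507). The control call was lost without fasted control replicate 2 or re-fed control replicate 1 (adjusted p up to 0.0699), and with quantile normalization (adjusted p = 0.0521).

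Serpinc1 had 876 and 963 FPKM in re-fed LMKO livers, 893 and 992 FPKM in re-fed control livers, 814 and 795 FPKM in fasted LMKO livers, and 733 and 621 FPKM in fasted control livers, with no overlap between feeding states. It rose in control livers by a log2 fold change of 0.48 (SE 0.14, limma adjusted p = 0.0372; 0.35 relative to the median). This call was lost in 7 of 8 fits without 1 library, all but the one without fasted control replicate 1, and with median-ratio scaling, quantile normalization, no filter, the length trend removed, or only the 4 control libraries. Proc (protein C, the protease that inactivates factor V) had 325 and 342 FPKM against 248 and 298 FPKM in re-fed LMKO and re-fed control livers, and 281 and 292 FPKM against 233 and 181 FPKM in fasted ones. Re-fed values of Proc were above fasted values in both genotypes, and neither comparison was called.

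Pros1 (chr16:62854160-62929166, mm9) had 13.7 and 18.5 FPKM in re-fed LMKO livers, 18.5 and 17.9 FPKM in re-fed control livers, 32.5 and 35.2 FPKM in fasted LMKO livers, and 29.8 and 49.1 FPKM in fasted control livers. No re-fed value came near the fasted ones. Pros1 fell by 1.04 in LMKO livers (SE 0.24, limma adjusted p = 0.0165) and by 1.03 in control livers (SE 0.24, limma adjusted p = 0.0205), or -1.16 relative to the median in control livers. The calls were lost without either fasted LMKO library or re-fed LMKO replicate 1 in LMKO livers (adjusted p up to 0.0898). In control livers they were lost without fasted control replicate 2 or either re-fed control library (adjusted p up to 0.0864), and with only the 4 control libraries (adjusted p = 0.0557). Endothelial cells also make protein S, and the summed level of the 8 markers of sinusoidal endothelial cells was lower after re-feeding too. They summed to 65.2 and 48.8 FPKM in re-fed LMKO livers, 60.8 and 65.0 FPKM in re-fed control livers, 119 and 111 FPKM in fasted LMKO livers, and 92.0 and 90.5 FPKM in fasted control livers, and no marker was at 0 in all libraries. Of the 8, 7 fell in LMKO and 6 in control livers. Clec4g, the highest of the markers in the re-fed libraries, did not follow. Its means were 29.4 FPKM re-fed and 32.0 FPKM fasted in LMKO livers, and 25.4 FPKM re-fed and 21.0 FPKM fasted in control livers. The part of the markers in the Pros1 result was not tested. In whole liver, fewer cells of a type and less RNA per cell cannot be told apart.

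Of the fibrinolysis genes, Plg had 747 and 613 FPKM in re-fed LMKO livers, 787 and 862 FPKM in re-fed control livers, 868 and 914 FPKM in fasted LMKO livers, and 927 and 748 FPKM in fasted control livers. The re-fed LMKO pair was the lowest, with 747 FPKM just under the 748 FPKM of 1 fasted control library, and the log2 fold change in LMKO livers on re-feeding of -0.40 (SE 0.16, limma adjusted p = 0.0937) did not pass. Serpinf2 (alpha-2-antiplasmin, the inhibitor of plasmin) ranged from 207 to 413 FPKM and was called in no comparison.

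**Figure D3:**
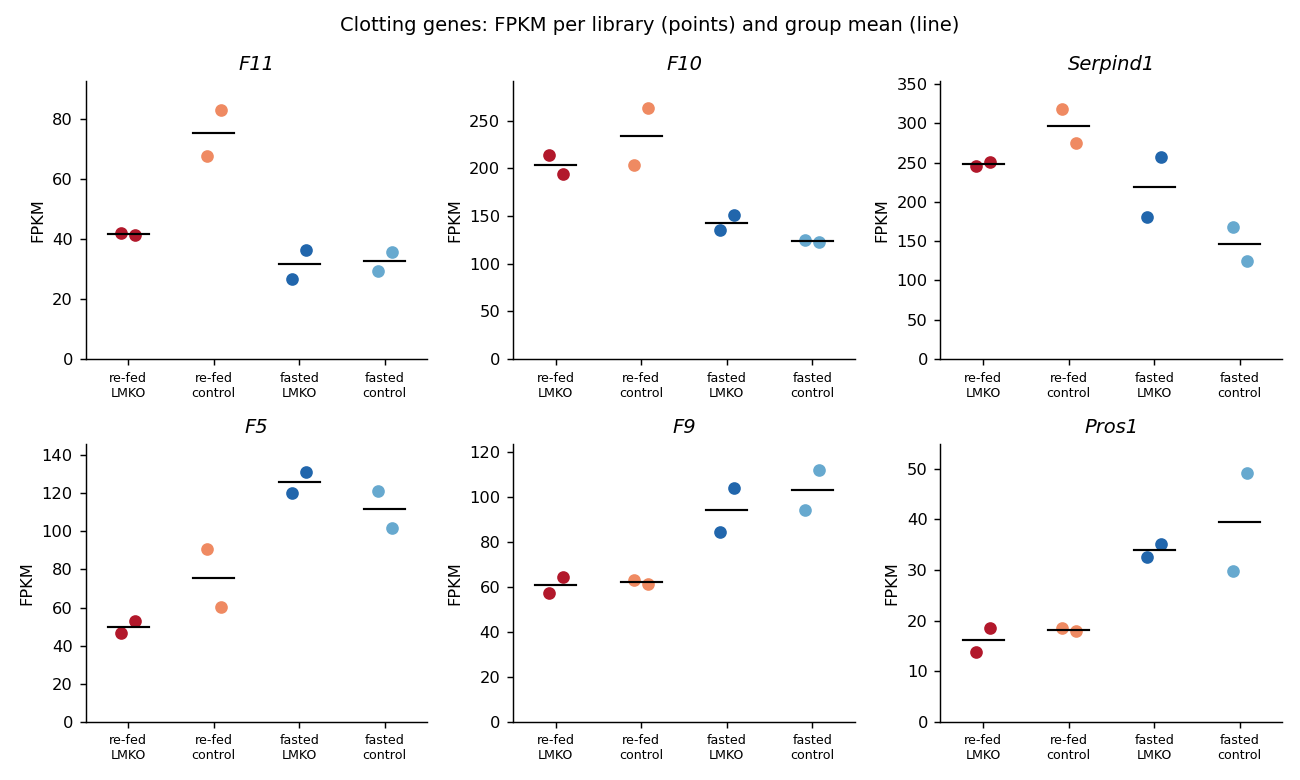
FPKM of 6 clotting genes that were called for re-feeding in at least 1 genotype; each point is 1 library, the line is the mean of the 2 libraries of a group, and every vertical axis starts at 0. F11 is highest in the 2 re-fed control libraries (67.8 and 83.0 FPKM), and F5 is lowest in the 2 re-fed LMKO libraries (46.8 and 52.8 FPKM).

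Among the complement genes, the lectin pathway genes Mbl1 and Mbl2 and the inhibitor C4bp were higher after re-feeding in both genotypes. These 3 made up 60% of the 5 complement calls in LMKO livers and 60% of the 5 in control livers. For clotting, the shared calls were F10, F9 and Pros1, which are 60% of the LMKO calls and 42.9% of the control calls, and no member was called in opposite directions. Over all loci, 24.9% were called in both genotypes in the same direction, which is 63% of the LMKO calls and 75% of the control calls, so sharing of this kind was general and says nothing particular about the members. Mbl1 and Mbl2 encode the mannose-binding lectins, which recognise sugars on microbes. Mbl1 (chr14:41964745-41972248, mm9) had 226 and 200.4 FPKM in re-fed LMKO livers, 215 and 248 FPKM in re-fed control livers, 141 and 135 FPKM in fasted LMKO livers, and 154 and 152 FPKM in fasted control livers. Mbl2 (chr19:30307447-30314172, mm9) had 228 and 252 FPKM in re-fed LMKO livers, 191 and 301 FPKM in re-fed control livers, 123 and 135 FPKM in fasted LMKO livers, and 109 and 65.1 FPKM in fasted control livers. For both genes every re-fed library exceeded every fasted one. The log2 fold change of Mbl1 was 0.62 (SE 0.13, limma adjusted p = 0.0103) in LMKO livers and 0.59 (SE 0.13, limma adjusted p = 0.0155; 0.47 relative to the median) in control livers. Mbl2 had 0.89 (SE 0.29, limma adjusted p = 0.0481) in LMKO livers and 1.50 (SE 0.29, limma adjusted p = 0.0115; 1.37 relative to the median) in control livers.

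The Mbl1 calls were lost with quantile normalization and with the length trend removed in both genotypes, with only the 4 control libraries in control livers, and without fasted LMKO replicate 2 or re-fed LMKO replicate 1, or fasted control replicate 2 or re-fed control replicate 2. The Mbl2 call in control livers was lost without re-fed control replicate 2 (adjusted p = 0.0566). In LMKO livers the Mbl2 call was lost without any 1 of the 4 LMKO libraries (adjusted p up to 0.171), and with quantile normalization, no filter or the length trend removed. The promoters of this pair are shown because the genes moved together and their windows share a run of 13 bases, in capitals, at -23 in Mbl1 and -57 in Mbl2 from the RefSeq start. Both are on the plus strand of GRCm38.p6, Mbl1 at chr14:41151206-41151455 and Mbl2 at chr19:30232678-30232927.
Mbl1: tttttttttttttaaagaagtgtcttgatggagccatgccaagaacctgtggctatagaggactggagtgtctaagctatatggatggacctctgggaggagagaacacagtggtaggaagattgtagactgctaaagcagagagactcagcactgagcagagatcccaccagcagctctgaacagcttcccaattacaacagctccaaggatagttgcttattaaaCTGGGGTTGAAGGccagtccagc
Mbl2: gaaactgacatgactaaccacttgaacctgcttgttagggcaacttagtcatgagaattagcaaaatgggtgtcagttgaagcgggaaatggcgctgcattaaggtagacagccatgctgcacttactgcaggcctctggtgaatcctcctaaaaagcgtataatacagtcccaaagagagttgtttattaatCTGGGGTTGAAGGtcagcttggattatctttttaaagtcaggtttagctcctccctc
Over all 276 pairs of member windows the longest shared run had a median of 8 bases and a maximum of 13, and 3 pairs reached 13. None of the motifs searched was found in either window.

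Masp1 and Masp2 encode proteases that bind these lectins and cleave the next components. Masp1 had 25.5 and 26.2 FPKM in re-fed LMKO livers, 49.2 and 29.3 FPKM in re-fed control livers, 36.9 and 43.6 FPKM in fasted LMKO livers, and 30.9 and 33.8 FPKM in fasted control livers. The re-fed LMKO pair was the lowest of the 4 groups, with a log2 fold change on re-feeding of -0.62 (SE 0.23, limma adjusted p = 0.0756), which did not pass. Masp2 ranged from 142 to 238 FPKM and was highest in the re-fed control libraries, at 238 and 224 FPKM, with a control log2 fold change of 0.40 (SE 0.15, limma adjusted p = 0.0837).

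C4bp encodes a chain of C4b-binding protein, which inhibits the classical and lectin pathways and in humans also carries protein S in plasma. C4bp (chr1:132532498-132558195, mm9) had 300.3 and 278 FPKM in re-fed LMKO livers, 325 and 295 FPKM in re-fed control livers, 148 and 170.5 FPKM in fasted LMKO livers, and 185 and 157 FPKM in fasted control livers. The lowest re-fed value, 278 FPKM, was well above the highest fasted value, 185 FPKM. The log2 fold change was 0.86 (SE 0.14) in each genotype, with limma adjusted p = 0.00541 in LMKO livers and limma adjusted p = 0.00724 in control livers (0.73 relative to the median). Both calls held without each library in turn; the LMKO call was lost only with quantile normalization among the 10 other settings (adjusted p = 0.0792). The difference between the responses was 0.00 (SE 0.20, limma adjusted p = 0.998). Its promoter is shown because this response was the same size in both genotypes; it lies on the minus strand of GRCm38.p6 (chr1:130661619-130661868), with the HNF1 motif in capitals.
C4bp: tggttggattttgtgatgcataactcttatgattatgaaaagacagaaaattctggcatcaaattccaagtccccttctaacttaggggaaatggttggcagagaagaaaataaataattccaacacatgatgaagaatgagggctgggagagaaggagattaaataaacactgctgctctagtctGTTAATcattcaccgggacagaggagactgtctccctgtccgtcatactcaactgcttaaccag
GTTAAT was found in 4 of 11 complement windows (C4bp, C8a, C8b and Hc), in 1 of 13 clotting windows (F13b) and in 6.43% of all windows.

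The other inhibitors went different ways. Serping1 (the C1 inhibitor, which blocks the first proteases of complement and the contact proteases; chr2:84605517-84615586, mm9) had 308 and 324 FPKM in re-fed LMKO livers, 314 and 349 FPKM in re-fed control livers, 425 and 503 FPKM in fasted LMKO livers, and 416 and 421 FPKM in fasted control livers. All re-fed values lay under all fasted values. Serping1 fell in LMKO livers by 0.55 on the log2 scale (SE 0.13, limma adjusted p = 0.0181) and had -0.34 (SE 0.13, limma adjusted p = 0.0917) in control livers. The LMKO call was lost without fasted LMKO replicate 2 or either re-fed LMKO library (adjusted p up to 0.0978) and held in all 10 other settings. Cfi (factor I, the protease that destroys active C3 and C4 fragments) had 234 and 236 FPKM in re-fed LMKO livers, 245 and 261 FPKM in re-fed control livers, 173 and 258 FPKM in fasted LMKO livers, and 179 and 157 FPKM in fasted control livers, and its control log2 fold change of 0.59 (SE 0.20, limma adjusted p = 0.0581) missed the threshold.

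Cfb (factor B, the protease of the alternative pathway; chr17:34993319-34999459, mm9) had 451 and 397 FPKM in re-fed LMKO livers, 436 and 425 FPKM in re-fed control livers, 370.0 and 420.5 FPKM in fasted LMKO livers, and 316 and 244 FPKM in fasted control livers. The fasted control pair was the low one. Cfb rose in control livers by a log2 fold change of 0.63 (SE 0.16, limma adjusted p = 0.0263; 0.51 relative to the median), and had 0.10 (SE 0.16, limma adjusted p = 0.644) in LMKO livers. The control call was lost without fasted control replicate 2 or either re-fed control library (adjusted p up to 0.11), and with median-ratio scaling, quantile normalization, the length trend removed or only the 4 control libraries. C2, the matching protease of the classical pathway, lies 87 bases from Cfb and ranged from 26.2 to 44.1 FPKM with no call.

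The membrane attack complex genes moved less evenly. C8a (the alpha chain of C8; chr4:104488285-104549003, mm9) had 88.5 and 84.0 FPKM in re-fed LMKO livers, 226 and 201 FPKM in re-fed control livers, 63.1 and 109 FPKM in fasted LMKO livers, and 102 and 134 FPKM in fasted control livers. Only the re-fed control pair exceeded 134 FPKM. C8a rose in control livers by a log2 fold change of 0.85 (SE 0.26, limma adjusted p = 0.0462; 0.73 relative to the median), against 0.06 (SE 0.26, limma adjusted p = 0.882) in LMKO livers, and the difference was -0.80 (SE 0.37, limma adjusted p = 0.567). The control call was lost in 6 of 8 fits without 1 library, all but those without a fasted LMKO library, and with median-ratio scaling, quantile normalization, no filter or the length trend removed. C8g (the gamma chain) had 416 and 375 FPKM in re-fed LMKO livers, 234 and 382 FPKM in re-fed control livers, 237 and 226 FPKM in fasted LMKO livers, and 243 and 201 FPKM in fasted control livers. The 2 re-fed control values lay far apart. C8g rose in LMKO livers by a log2 fold change of 0.77 (SE 0.23, limma adjusted p = 0.0397), a call that was lost without any 1 of the 4 LMKO libraries (adjusted p up to 0.155), with quantile normalization, no filter or the length trend removed. The ratio of C8g to C8a within a library was 4.7 and 4.46 in re-fed LMKO livers, 1.04 and 1.9 in re-fed control livers, 3.76 and 2.07 in fasted LMKO livers, and 2.37 and 1.49 in fasted control livers. The 3 chains form 1 protein, and this ratio was highest in the re-fed LMKO pair. The median transcript length is 986 bases for C8g and 3539 bases for C8a, and levels shifted with transcript length between libraries. The part of length in this ratio was not tested.

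C8b, the beta chain gene next to C8a on chromosome 4 (11131 bases between the loci), had 142 and 123 FPKM in re-fed LMKO livers, 220.3 and 204 FPKM in re-fed control livers, 69.6 and 171 FPKM in fasted LMKO livers, and 135 and 166 FPKM in fasted control livers. Hc, the mouse gene of C5, had 143 and 131 FPKM in re-fed LMKO livers, 288 and 223 FPKM in re-fed control livers, 127 and 185 FPKM in fasted LMKO livers, and 177 and 207 FPKM in fasted control livers. C9, which forms the pore, had 143 and 90.2 FPKM in re-fed LMKO livers, 282 and 206 FPKM in re-fed control livers, 66.9 and 189.9 FPKM in fasted LMKO livers, and 186 and 336 FPKM in fasted control livers. For C8b, Hc and C9 the re-fed control pair was above the re-fed LMKO pair, and none passed the test on re-feeding. C6 ranged from 67.3 to 136 FPKM and was not called. In the fasted state replicate 2 exceeded replicate 1 in both genotypes for C6, C8a, C8b, Hc and C9. The acute-phase gene Saa1 had the same order, at 29.6 and 396 FPKM in fasted LMKO livers and 89.2 and 776 FPKM in fasted control livers, and 42.6 to 70.5 FPKM in the re-fed libraries. Its part in these values was not tested.

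Set by genotype, no member passed the test in any comparison. Called were 0 of 33 in re-fed LMKO livers against re-fed control livers (0.101% of all loci were called), 0 of 33 in fasted LMKO livers against fasted control livers (0.166%), 0 of 33 for the mean of both states (0.313%), and 0 of 33 for the difference between the re-feeding responses (0.0368%). At an unadjusted limma p under 0.05 there were 6 members in the re-fed state, 1 higher and 5 lower in LMKO livers, and 6 in the fasted state, all higher. The mean of both states had 9, of which 3 were higher and 6 lower, and the difference between responses had 5, all lower. Over all 10865 loci the unadjusted counts were 1269 in the re-fed state (773 higher, 496 lower) and 1342 in the fasted state (955 higher, 387 lower). For the mean there were 1646 (1174 higher, 472 lower) and for the difference 1016 (353 higher, 663 lower). Higher fasted values and lower differences were thus the more frequent direction over all loci as well. In the re-fed state and for the mean of both states, members were more often lower, while higher values were more frequent over all loci. The members were picked with earlier results known, so these counts are descriptions only. The count of 0 also held in limma without the variance trend and in every other setting tried.

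**Figure D4:**
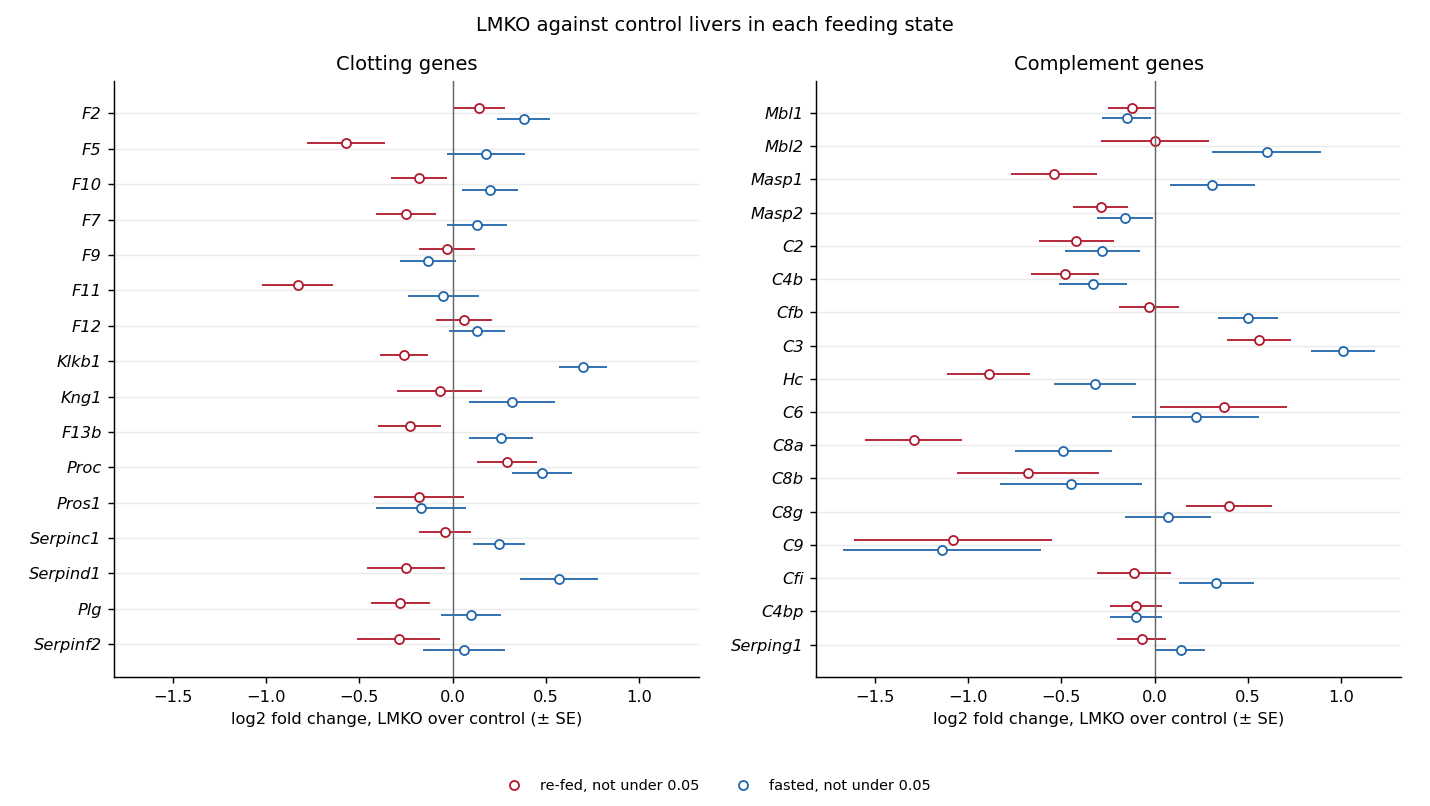
Log2 fold change of LMKO over control (on log2(FPKM + 1)) for the 16 clotting genes (left) and the 17 complement genes (right), with red points for the re-fed and blue points for the fasted state; bars are ± 1 SE from limma, and open points mean that no adjusted p was under 0.05. C3 lies right of 0 in both states (0.56 and 1.01), while C8a lies furthest left in the re-fed state (-1.29).

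Fasted and re-fed livers differed in the sign of the clotting values. In the re-fed state, LMKO over control was below 0 for 13 of 16 clotting genes and above 0 for 3, with a median log2 fold change of -0.21 against 0.01 over all loci, of which 5272 of 10865 were below 0. In the fasted state it was above 0 for 13 of 16 and below 0 for 3, with a median of 0.19 against 0.08 over all loci, of which 7042 of 10865 were above 0. With median-ratio scaling the fasted clotting median was 0.09 and the median difference between responses -0.26. The median difference between the re-feeding responses was -0.38 over the clotting genes and -0.06 over all loci, and the 2 genotype comparisons share no library. Fasted control replicate 2 weighed on these medians: without it the fasted clotting median was 0.07 and the median difference between responses -0.24, against 0.32 and -0.51 without fasted control replicate 1. Without re-fed control replicate 2 the re-fed clotting median was -0.13 and the median difference -0.25. For complement the re-fed median was -0.12, with 13 of 17 below 0, and the fasted median was -0.10, with 9 of 17 below 0. These are descriptions, since the 33 genes were picked with earlier results known. Values close to 0 changed sign with the scaling: F12, F2 and Mbl2 in the re-fed state with quantile normalization, F12 and Mbl2 there with the length trend removed, and Plg, Serpinf2 and C8g in the fasted state with median-ratio scaling.

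By overlap, LMKO libraries lay below control libraries without overlap for 8 of 16 clotting and 9 of 17 complement genes in the re-fed state, where 19.4% of all loci did, and above them for 2 and 2, where 25.6% did. In the fasted state they lay above for 7 clotting and 5 complement genes, where 33.0% of all loci did, and below for 0 and 2, where 12.8% did. In both states at once, C3, F2 and Proc were higher without overlap (10.1% of all loci) and C4b was lower (3.38%). With 2 libraries a group, separation of this kind is frequent and was not a call.

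C3 had the smallest adjusted p of all members by genotype. C3 (the central component; chr17:57343396-57367559, mm9) read 2338 and 2373 FPKM in re-fed LMKO livers, 1608 and 1582 FPKM in re-fed control livers, 2501 and 3167 FPKM in fasted LMKO livers, and 1572 and 1248 FPKM in fasted control livers. All 4 LMKO libraries exceeded all 4 control libraries, with means of 2355 ± 25.0 against 1595 ± 18.0 FPKM in the re-fed state and 2834 ± 471 against 1410.0 ± 229.7 FPKM in the fasted state (SD, n = 2 each). The log2 fold change was 0.56 (SE 0.17, limma adjusted p = 0.334) for re-fed livers, 1.01 (SE 0.17, limma adjusted p = 0.111) for fasted livers and 0.78 (SE 0.12, limma adjusted p = 0.0776) for the mean of both. None passed, and the adjusted p of the mean was never under 0.0534 in any setting tried. C3 was not called for re-feeding either, with -0.26 in LMKO and 0.19 in control livers.

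C4b, whose protein acts just upstream of C3 in the classical pathway, had 159.5 and 129 FPKM in re-fed LMKO livers, 209 and 192 FPKM in re-fed control livers, 153 and 194 FPKM in fasted LMKO livers, and 235 and 201 FPKM in fasted control livers. The LMKO values were below the control values in each state, with a mean log2 difference of -0.41 (SE 0.12, limma adjusted p = 0.227), which did not pass; its near copy C4a had 0.888 to 14.1 FPKM, and the split of reads between them is uncertain. Scaling a library by 1 factor leaves its ratio of C3 to C4b unchanged, while quantile normalization or removal of a length trend can change it. The ratio of C3 to C4b was 14.7 and 18.4 in re-fed LMKO livers and 7.69 and 8.22 in re-fed control livers. In fasted livers it was 16.3 and 16.3 for LMKO and 6.7 and 6.2 for control. The ratio of C3 to Hc was 16.3 and 18.2 in re-fed LMKO livers, 5.58 and 7.1 in re-fed control livers, 19.6 and 17.1 in fasted LMKO livers, and 8.87 and 6.02 in fasted control livers. Both ratios were higher in every LMKO library than in any control library; the pairs of genes were chosen after their values were seen, so no test is given.

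Because C3 set the complement total, the sum was taken with and without it. All 17 complement genes summed to 5569.9 and 5345 FPKM in re-fed LMKO livers, 5236 and 5247 FPKM in re-fed control livers, 4890.0 and 6251 FPKM in fasted LMKO livers, and 4330.2 and 4054 FPKM in fasted control livers. In FPKM the LMKO sums were above the control sums in both states. As a share of the library's FPKM total, the 17 genes made up 0.932% and 0.92% in re-fed LMKO livers, 1.02% and 0.949% in re-fed control livers, 1.05% and 1.34% in fasted LMKO livers, and 0.941% and 0.894% in fasted control livers, so in the re-fed state the LMKO shares were below the control shares. Without C3 they were 3232 and 2972 FPKM in re-fed LMKO livers, 3628 and 3664 FPKM in re-fed control livers, 2389 and 3084 FPKM in fasted LMKO livers, and 2758 and 2807 FPKM in fasted control livers. The re-fed LMKO sums were then below the re-fed control sums and the fasted groups overlapped.

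C8a, C9, Hc and C8b, all of the terminal pathway, had the most negative re-fed values of LMKO over control among the complement genes, though none passed. In the re-fed state the log2 fold change was -1.29 for C8a (SE 0.26, limma adjusted p = 0.246), -0.89 for Hc (SE 0.22, limma adjusted p = 0.288), -1.08 for C9 (SE 0.53, limma adjusted p = 0.475) and -0.68 for C8b (SE 0.38, limma adjusted p = 0.526). In the fasted state the same genes had -0.49, -0.32, -1.14 and -0.45, with overlapping libraries for all of them. C6 and C8g, of the same pathway, lay on the other side in the re-fed state, at 0.37 (SE 0.34, limma adjusted p = 0.685) and 0.40 (SE 0.23, limma adjusted p = 0.545). The mean of both states was -0.89 for C8a (SE 0.19, limma adjusted p = 0.133) and -0.60 for Hc (SE 0.15, limma adjusted p = 0.174). Among the other complement genes, Cfb had 0.50 (SE 0.16, limma adjusted p = 0.294) and Mbl2 0.60 (SE 0.29, limma adjusted p = 0.462) in the fasted state. Between the responses of the genotypes to re-feeding, the smallest complement p-values were those of Masp1, at -0.84 (SE 0.33, limma adjusted p = 0.515), and Cfb, at -0.53 (SE 0.23, limma adjusted p = 0.541).

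The promoters of C3 and C8a, the members with the smallest adjusted p for the mean genotype difference, are shown because their differences have opposite signs. Both lie on the minus strand of GRCm38.p6, C3 at chr17:57228137-57228386 with a C/EBP match in capitals, and C8a at chr4:104876399-104876648 with a STAT match and then an HNF1 match in capitals.
C3: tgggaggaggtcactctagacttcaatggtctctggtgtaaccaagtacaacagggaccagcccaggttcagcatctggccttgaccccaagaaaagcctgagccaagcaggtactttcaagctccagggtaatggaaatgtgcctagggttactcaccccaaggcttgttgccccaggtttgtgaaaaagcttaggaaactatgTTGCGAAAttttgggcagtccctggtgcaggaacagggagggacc
C8a: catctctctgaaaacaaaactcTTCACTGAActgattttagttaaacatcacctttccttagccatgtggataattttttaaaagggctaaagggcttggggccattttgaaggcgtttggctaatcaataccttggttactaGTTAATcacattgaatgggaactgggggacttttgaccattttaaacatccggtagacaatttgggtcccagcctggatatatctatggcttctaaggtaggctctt
Of the factors that bind C/EBP sites, Cebpb had 14.0 and 10.1 FPKM in re-fed LMKO livers, 13.5 and 15.4 FPKM in re-fed control livers, 13.3 and 15.0 FPKM in fasted LMKO livers, and 30.9 and 42.9 FPKM in fasted control livers. Its fasted difference of -1.31 on the log2 scale (SE 0.21, limma adjusted p = 0.0979) did not pass, and it fell on re-feeding in control livers by 1.28 (SE 0.21, limma adjusted p = 0.00691). Cebpd had 0.634 and 0.417 FPKM in re-fed LMKO livers, 0.841 and 0.747 FPKM in re-fed control livers, 1.0 and 1.22 FPKM in fasted LMKO livers, and 3.01 and 6.08 FPKM in fasted control livers. Its fasted difference was -1.34 (SE 0.25, limma adjusted p = 0.145), and it fell on re-feeding in control livers by 1.57 (SE 0.25, limma adjusted p = 0.00685). Cebpa went the other way, with 103 and 97.9 FPKM in re-fed LMKO livers, 118 and 137 FPKM in re-fed control livers, 92.7 and 98.9 FPKM in fasted LMKO livers, and 87.7 and 53.7 FPKM in fasted control livers. Its fasted difference was 0.47 (SE 0.22, limma adjusted p = 0.459), and it rose on re-feeding in control livers by 0.88 (SE 0.22, limma adjusted p = 0.0257). The Cebpa call was lost without fasted control replicate 2 or either re-fed control library (adjusted p up to 0.116), while the control calls of Cebpb and Cebpd held without each library in turn.

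**Figure D5:**
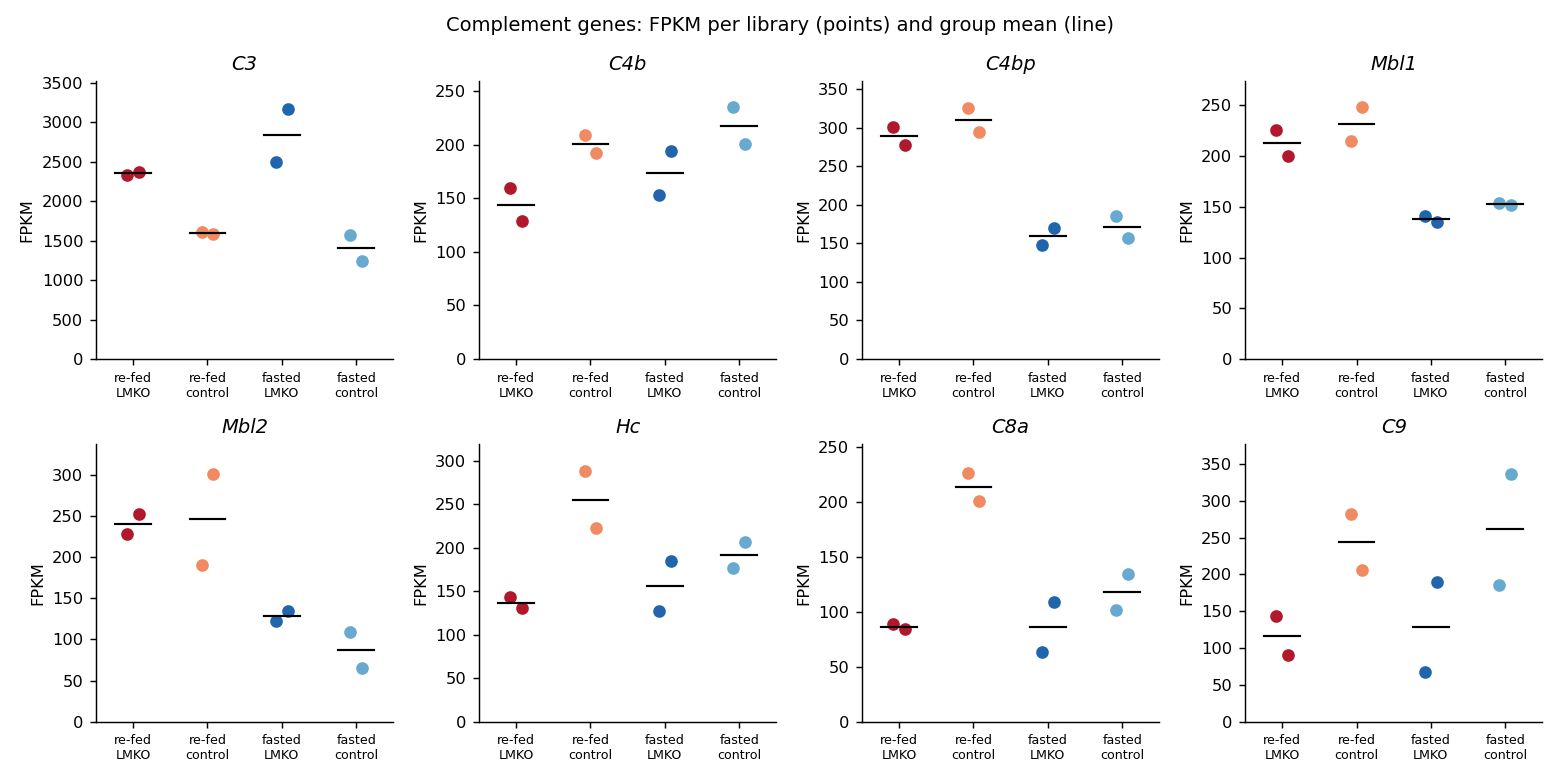
FPKM of 8 complement genes; each point is 1 library, the line is the mean of the 2 libraries of a group, and every vertical axis starts at 0. C3 is higher in all 4 LMKO libraries (2338 to 3167 FPKM) than in the control libraries (1248 to 1608 FPKM), and C8a is highest in the re-fed control pair (226 and 201 FPKM).

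Among the clotting genes, the smallest genotype p-values belonged to F11 and F5 in the re-fed state and to Klkb1 and Proc in the fasted state. In the re-fed state LMKO over control was -0.83 for F11 (SE 0.19, limma adjusted p = 0.269) and -0.57 for F5 (SE 0.21, limma adjusted p = 0.388). In the fasted state it was 0.70 for Klkb1 (SE 0.13, limma adjusted p = 0.145), 0.48 for Proc (SE 0.16, limma adjusted p = 0.316), 0.57 for Serpind1 (SE 0.21, limma adjusted p = 0.358) and 0.38 for F2 (SE 0.14, limma adjusted p = 0.364). Proc was also higher in re-fed LMKO livers, at 333 ± 12.2 against 273 ± 35.1 FPKM, and had 287 ± 7.99 against 207 ± 36.8 FPKM in the fasted state (SD, n = 2 each). Its mean genotype difference of 0.39 (SE 0.11, limma adjusted p = 0.215) did not pass.

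Other genes of the same pathways, listed from general knowledge, were tested beside the members. On re-feeding 39.5% of all loci were called in LMKO livers and 33.2% in control livers, so the counts that follow are descriptions only. Of 31 other clotting genes, 23 were tested. Of these, 5 rose and 2 fell on re-feeding in LMKO livers, and 8 rose and 2 fell in control livers. The ones that rose in both included Ggcx, the carboxylase that gives vitamin K-dependent factors such as F9, F10 and Proc their calcium-binding residues. Ggcx had 31.0 and 34.4 FPKM in re-fed LMKO livers, 39.3 and 36.7 FPKM in re-fed control livers, 18.3 and 16.2 FPKM in fasted LMKO livers, and 14.3 and 14.2 FPKM in fasted control livers. Every re-fed library was above every fasted one, and the log2 fold change was 0.88 (SE 0.12, limma adjusted p = 0.00279) in LMKO livers and 1.35 (SE 0.12, limma adjusted p = 0.00161) in control livers. Habp2, a plasma protease that can act on factor VII, had 104 and 109.7 FPKM in re-fed LMKO livers, 102 and 101 FPKM in re-fed control livers, 58.2 and 60.9 FPKM in fasted LMKO livers, and 36.7 and 38.6 FPKM in fasted control livers. Its log2 fold change was 0.83 (SE 0.10, limma adjusted p = 0.00248) in LMKO livers and 1.41 (SE 0.10, limma adjusted p = 0.00105) in control livers. The calls of Ggcx and Habp2 held without each library in turn. Mcfd2, which helps to secrete factors V and VIII, Cpb2, which slows fibrinolysis, and Serpina10, an inhibitor of factor X, also rose in both genotypes, with log2 fold changes of 0.57 to 1.05 in LMKO livers and 0.64 to 0.88 in control livers. The Serpina10 call in LMKO livers was lost in 7 of 8 fits without 1 library, all but the one without fasted LMKO replicate 2, and its control call was lost without fasted control replicate 2 or re-fed control replicate 1, as was that of Mcfd2. The Cpb2 call was lost in LMKO livers without fasted LMKO replicate 1 or either re-fed LMKO library, and in control livers in 6 of 8 fits, all but those without a fasted LMKO library.

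F8, the gene of factor VIII, which in mice is made in liver endothelial cells, fell in both genotypes. It had 1.14 and 0.987 FPKM in re-fed LMKO livers, 1.69 and 1.37 FPKM in re-fed control livers, 4.42 and 3.57 FPKM in fasted LMKO livers, and 2.77 and 4.67 FPKM in fasted control livers. The log2 fold change was -1.27 (SE 0.21, limma adjusted p = 0.00525) in LMKO livers and -0.87 (SE 0.21, limma adjusted p = 0.0212) in control livers, beside the endothelial marker sums given with Pros1. The control call of F8 was lost without fasted control replicate 2 or either re-fed control library (adjusted p up to 0.0984). The fibrinogen genes, whose product is the substrate of thrombin, were called in no comparison: Fgb ranged from 1650.4 to 2909 FPKM, Fgg from 1217 to 2461 FPKM and Fga from 939 to 1573 FPKM.

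Of 29 other complement genes, 20 were tested. On re-feeding 4 fell in LMKO livers, where 16.3% of all loci were called lower. In control livers 4 rose, where 22.8% of all loci were called higher. Those that fell in LMKO livers were Vsig4 (a macrophage receptor of C3 fragments, -1.29), Fcna (ficolin A, -0.98), Colec10 (a collectin, -0.75) and Cfp (properdin, -0.82), all log2 fold changes. Those that rose in control livers were Cpn1 (carboxypeptidase N, 0.63), C1s (0.54) and C1ra (0.56), proteases of the C1 complex, and Cr1l (a membrane regulator, 0.43). The Cpn1 call held without each library in turn; Vsig4 and Fcna were lost without fasted LMKO replicate 2 or re-fed LMKO replicate 1, Colec10 and Cfp without any 1 LMKO library, Cr1l without any 1 control library, C1ra in 6 of 8 fits without 1 library (any control or re-fed LMKO library), and C1s in 7 of 8, all but the one without fasted control replicate 1. Vsig4 had 3.78 and 6.82 FPKM in re-fed LMKO livers, 7.71 and 10.4 FPKM in re-fed control livers, 12.4 and 15.7 FPKM in fasted LMKO livers, and 10.2 and 13.5 FPKM in fasted control livers. The 10 Kupffer cell markers found, Vsig4 among them, summed to 65.0 and 98.2 FPKM in re-fed LMKO livers, 99.5 and 146 FPKM in re-fed control livers, 137 and 178 FPKM in fasted LMKO livers, and 129.7 and 153 FPKM in fasted control livers. Of those markers 6 fell in LMKO livers and 1 in control livers, none was at 0 in all libraries, and their part in the Vsig4, Fcna and Cfp values was not tested. By genotype none of the other clotting or complement genes was called; the smallest fasted p-values were those of Habp2, with 0.65 (SE 0.10, limma adjusted p = 0.101), and Cpn1, with 0.62 (SE 0.12, limma adjusted p = 0.145).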

How the data were processed

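The members and all gene lists were chosen with earlier results of these data known. For each of 8 liver libraries the authors deposited 1 table of FPKM values per annotated locus; per the submitters' processing notes, TopHat 1.4.1, Cufflinks 2.0.2 and Cuffdiff 2.0.2 were used with mouse build mm9. Strand handling and scaling between libraries are not given in the sources used here, and the fragment depth is unknown. Locus starts were deposited counting from 0 and are printed 1 higher.

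Groups came from the sample labels. With limma 3.58.1 in R 4.3.3, log2(FPKM + 1) was fitted for 10865 loci with at least 1 FPKM in at least 2 libraries, in 1 model of 4 group means (4 residual degrees of freedom, prior 2.74, variance trend), two-sided, called at a Benjamini-Hochberg adjusted p under 0.05. The 2 libraries of a group are 2 mice in the design text. Members called were named, or the 4 smallest p per list where fewer than 4 passed; members outside that rule are described by role. In simulated data of the fasted genotype comparison, 100 changes of 1 log2 unit and 100 of 2 were placed at loci with a mean log2 level above 4. Noise was normal, with the variance that limma estimated. The procedure recovered 81% of the changes of 1 unit and 96% of those of 2, with 11 false calls. Fewer true changes make the adjusted threshold stricter, and the real comparison called 18 loci. These shares are therefore not the power of the real comparison. Alternatives were other pseudocounts (0.1, 0.5), filters (none, 5 FPKM), scalings (median-ratio, quantile), no variance trend, only 4 libraries, a replicate block, removal of a length trend (lengths for 90.8% of loci), and leaving out each library. Promoters came from RefSeq on GRCm38.p6. Python 3.11.15 and pandas 2.3.3 joined the tables. Other columns of the tables were not used.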

Additional observations from a re-analysis of the deposited data

Results flagged for a closer look

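In each gene below the libraries of 1 contrast all moved one way in one group and all the other way in the other, while the limma test of the difference itself did not pass after adjustment. Klkb1 had a re-feeding log2 fold change of -0.73 in LMKO livers and 0.23 in control livers, a difference of -0.96 (limma adjusted p = 0.451). The same difference of -0.96 separated its LMKO over control values of -0.26 in the re-fed and 0.70 in the fasted state. Masp1 had LMKO over control values of -0.54 re-fed and 0.31 fasted, a difference of -0.84 (limma adjusted p = 0.515). Serpind1 had -0.25 re-fed and 0.57 fasted, a difference of -0.82 (limma adjusted p = 0.507). F13b had -0.23 re-fed and 0.26 fasted, a difference of -0.49 (limma adjusted p = 0.581). C3 had a re-feeding value of -0.26 in LMKO and 0.19 in control livers, a difference of -0.44 (limma adjusted p = 0.596). In control livers the separation of C3 rested on 1582 FPKM re-fed against 1572 FPKM fasted, and that of Klkb1 on 79.1 FPKM against 77.6 FPKM. In the fasted state the separation of F13b rested on 86.2 FPKM in LMKO against 85.4 FPKM in control livers. In all, 33 genes were looked at. The share of all loci with such a reversal was not counted. Separation in 1 direction alone occurred at 12.8% to 43.9% of all loci, depending on contrast and direction, so these reversals are descriptions only.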

How the results depend on the processing

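No member was called by genotype or for the difference between responses in any setting. Quantile normalization changed the sign of the re-feeding value for 14 of 33 members in LMKO and 10 in control livers, and it called 3 of these lower in LMKO livers against uncalled values just above 0: F2 at -0.53 (limma adjusted p = 0.0304), Cfb at -0.51 (limma adjusted p = 0.0418) and F12 at -0.46 (limma adjusted p = 0.0477). Over single genes and list medians, 1055 values stayed as they were called, 94 kept the direction but lost the call, and 19 medians of the 2 gene lists moved by more than the spread used for them. Among these, the complement median for re-feeding in LMKO livers was -0.28 without fasted LMKO replicate 1 and 0.44 without fasted LMKO replicate 2, and the clotting median in control livers was -0.09 with quantile normalization. Of the 5 clotting and 5 complement calls for re-feeding in LMKO livers, quantile normalization gave 8 clotting calls, and complement had 3 with no filter and 2 with the length trend removed. With quantile normalization no member called higher in LMKO livers kept its call (F10, C4bp, Mbl1, Mbl2 and C8g). The complement calls there were then Serping1, Masp1, C4b and Cfb, all lower. Of the 7 clotting and 5 complement calls in control livers, only the 4 control libraries gave 4 and 3, and complement had 3 with quantile normalization and 3 with the length trend removed. Replicate numbers did not pair the libraries (correlations of deviations -0.0835 to -0.00835); the replicate block gave 4 clotting and 3 complement calls in LMKO livers and 6 and 4 in control livers. With the block F10, Mbl2 and C8g were not called in LMKO livers (adjusted p of 0.0568 to 0.0741), nor Serpinc1 and C8a in control livers (0.0661 and 0.0534). Leaving out 1 library gave 2 to 5 clotting and 1 to 6 complement calls in LMKO livers, and 2 to 9 and 1 to 6 in control livers. In LMKO livers the counts were 3 and 3 without fasted LMKO replicate 1, 2 and 2 without fasted LMKO replicate 2, 2 and 1 without re-fed LMKO replicate 1, and 3 and 2 without re-fed LMKO replicate 2. In control livers they were 2 and 2 without fasted control replicate 2 and 3 and 1 without re-fed control replicate 2, and clotting had 4 without re-fed control replicate 1; fewer samples entered each of these fits. The causes of the other shifts were not tested. Among all loci, 68.5% of control re-feeding calls were higher, against 53.3% with median-ratio scaling, 49.7% with quantile normalization and 51.4% with the length trend removed. The fragment depth is unknown, so no precision from counting can be given.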
